A study of Mus musculus with 15 samples.

Results

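The 9 genes described here make, move, degrade or sense acetylcholine. They were taken by symbol, as all rows of the expression table named Chat, Slc18a3, Slc5a7, Ache and Chrm1 to Chrm5, and are 9 of 26628 genes. All 9 were among the 15213 genes tested, although 5 of them passed the filter on low values only through the striatum. RNA had been sequenced from the whole cerebellum (Ce) and the whole striatum (St) of male Hsd:ICR mice from 2 lines, one selected over generations for how far the mice run on a wheel by choice (Hi) and one bred without that selection (Co). Every mouse, the controls included, was labelled 6 weeks old and was caged alone with a running wheel for 7 days before its brain was taken. The groups were 4 CeCo, 4 CeHi, 4 StCo and 3 StHi samples, and the authors had removed 1 further StHi sample. Which line a library came from is known only from its label, and no gene described here checks that label, so the direction of every line difference rests on it. With 1 line of each kind, selection for running cannot be told apart from any other difference between these lines. Values are fragment counts that the authors divided by a library factor of each sample, called normalized counts below, and 1 fragment was worth 0.841 to 1.30 of them.

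Acetylcholine in the striatum comes largely from local cholinergic interneurons, a sparse population of large neurons. Choline acetyltransferase (Chat) makes the transmitter, the vesicular transporter VAChT (Slc18a3) loads it into vesicles, the high-affinity choline transporter CHT (Slc5a7) takes choline back up, and acetylcholinesterase (Ache) breaks the transmitter down. Of the muscarinic receptors, M1, M3 and M5 (Chrm1, Chrm3, Chrm5) couple to Gq and phospholipase C, whereas M2 and M4 (Chrm2, Chrm4) couple to Gi and lower cyclic AMP. Medium spiny neurons, the main neurons of the striatum, carry M1 and M4, and M2 is known as an autoreceptor of cholinergic terminals. The cerebellum has few cholinergic cell bodies and receives its cholinergic fibres mainly from the brainstem.

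Chat and Slc18a3 share one locus. On GRCm38, Chat lies on the minus strand at chr14:32408203-32465989, and the single exon of Slc18a3 lies on the same strand at chr14:32462438-32464850. In 4 of the 8 annotated Chat transcripts the whole of Slc18a3 falls in intron 1, and the other 4 start downstream of it. The start of Slc18a3 is 1107 bases downstream of the start shared by 3 of these transcripts. No exon of Chat overlaps Slc18a3, but fragments of unspliced Chat RNA from intron 1 could be counted as Slc18a3. The strand setting of the counting is not given in the sources used here, and an antisense gene, Gm2990, also overlaps Chat. Slc5a7, the third of the genes that mark a cholinergic terminal, is unlinked, at chr17:54273590-54299034 on the minus strand.

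The starts of these 3 genes, and that of Chrm4, the one member whose striatal samples did not overlap between the lines, are shown as 300-base windows (250 bases before to 50 bases after the start, RefSeq, GRCm38.p6), written 5′ to 3′ on the gene's own strand. Capitals mark a GC box (GGGCGG or its reverse complement CCGCCC) or a cyclic AMP response element half-site (TGACG or CGTCA), and these 2 motifs did not overlap each other. The windows are chr14:32465860-32466159 for Chat, chr14:32464801-32465100 for Slc18a3, chr17:54298985-54299284 for Slc5a7, all on the minus strand, and chr2:91921939-91922238 on the plus strand for Chrm4. The Chrm4 window lies upstream of the annotated gene model used for its counts (chr2:91927249-91928688), which holds coding sequence only.
Chat: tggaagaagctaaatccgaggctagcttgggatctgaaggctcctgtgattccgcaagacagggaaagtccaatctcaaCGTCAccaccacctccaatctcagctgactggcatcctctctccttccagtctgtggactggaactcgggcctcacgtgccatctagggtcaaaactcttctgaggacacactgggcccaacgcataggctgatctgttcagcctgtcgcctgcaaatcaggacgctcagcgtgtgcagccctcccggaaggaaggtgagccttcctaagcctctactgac
Slc18a3: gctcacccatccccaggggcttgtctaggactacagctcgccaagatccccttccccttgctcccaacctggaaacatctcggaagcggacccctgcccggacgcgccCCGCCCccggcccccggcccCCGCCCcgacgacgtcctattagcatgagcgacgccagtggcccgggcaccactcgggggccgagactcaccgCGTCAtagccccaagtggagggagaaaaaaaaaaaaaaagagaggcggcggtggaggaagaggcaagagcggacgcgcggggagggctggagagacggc
Slc5a7: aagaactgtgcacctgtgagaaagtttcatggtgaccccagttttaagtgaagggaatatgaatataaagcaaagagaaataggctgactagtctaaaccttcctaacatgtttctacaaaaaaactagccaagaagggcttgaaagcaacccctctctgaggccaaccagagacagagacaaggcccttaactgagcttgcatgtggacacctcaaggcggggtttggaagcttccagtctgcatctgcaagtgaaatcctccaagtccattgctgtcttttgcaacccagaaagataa
Chrm4: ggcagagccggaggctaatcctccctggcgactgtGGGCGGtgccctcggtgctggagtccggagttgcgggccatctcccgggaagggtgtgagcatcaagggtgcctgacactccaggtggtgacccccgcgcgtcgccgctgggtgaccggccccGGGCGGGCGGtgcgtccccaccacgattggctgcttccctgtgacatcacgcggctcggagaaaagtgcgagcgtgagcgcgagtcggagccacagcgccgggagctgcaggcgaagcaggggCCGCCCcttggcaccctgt
The windows of Chat and Slc18a3 each held 1 half-site, which 21.0% of 27025 promoters of this length hold on either strand, and those of Slc5a7 and Chrm4 held none. GC boxes, present in 35.9% of promoters, numbered 2 in Slc18a3 and 4 in Chrm4, where 2 of the 4 overlap, and 0 in Chat and Slc5a7. Base composition differed among the windows, from 1 CpG and 44.7% GC in Slc5a7, and 10 CpG and 55.7% GC in Chat, to 27 CpG and 67.0% GC in Slc18a3 and 30 CpG and 70.7% GC in Chrm4, against a median of 7 CpG and 52.7% GC over all promoters. The Slc5a7 window was the only one of the 8 matched members with TATAAA (1 match, 14.2% of promoters). E-boxes (CANNTG), found in 72.1% of promoters, numbered 2 in Chat, 1 in Slc18a3, 4 in Slc5a7 and 1 in Chrm4. Chrm1 was not matched.

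The samples held 32909383 to 47485535 fragments, and the first principal component, with 88.7% of the variance, separated the regions. Labelled tissues were checked against marker genes. Of 9 medium spiny neuron markers 6 met the filter in both regions and all 6 were higher in St. Of 7 granule cell markers 4 did and all 4 were higher in Ce. The summed level of 11 brainstem and motor neuron markers was low, at 16.03 to 52.9 in Ce and 0 to 5.25 in St. The regions did not overlap in this sum. Whether brainstem tissue contributed to the Ce counts of Chat and Slc18a3, which were lower than this sum, was not tested. CeHi replicate 3 stood apart from the other Ce samples. The median of the 9 medium spiny neuron markers reached 2.12% of the mean in St there, and 0.603% to 0.745% in each remaining Ce library. Their summed level did not set it apart, at 12209, with 11561 to 12682 in the other CeHi samples. CeHi replicate 3 also held 613 normalized counts of the interneuron peptide Sst, where the remaining Ce libraries held 57.0 to 89.1. The cerebellar line differences of the members are therefore given with and without it. The samples of a group came from separate mice, and the p-values measure the spread between them.

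The genes of synthesis and transport had nearly all of their fragments in the striatum. Chat in StCo had 937, 779, 853 and 788 normalized counts, and in StHi 851, 1016 and 976. In CeCo it had 3.73, 0.892, 1.71 and 1.78, and in CeHi 5.05, 2.11, 0.926 and 8.45, which are 1 to 8 fragments per sample. The 2 regions did not overlap, and the lines overlapped in both. Over pooled fragments, the St to Ce ratio of Chat was 383 in Co (95% interval from 201 to 838) and 218 in Hi (136 to 374). These intervals cover counting error only and not the spread between mice. Of the 17 Ce fragments in Hi, 8 were in CeHi replicate 3.

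Slc18a3 had 393, 398, 522 and 279 normalized counts in StCo, and 380.1, 400.1 and 394 in StHi. The 3 StHi samples lay within the range of StCo, with an SD of 10.3 against 99.3. In the cerebellum Slc18a3 had 0 to 2.80 in CeCo and 0 to 5.28 in CeHi, 0 to 6 fragments per sample, and no fragment was counted in 3 of the 8 Ce samples. A count of 0 allows up to 3 fragments. The pooled St to Ce ratio was 181 in Co (94.998 to 396) and 138 in Hi (76.9 to 278), where 5 of the 11 Ce fragments were in CeHi replicate 3. Here too the intervals cover counting error only and not the spread between mice.

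Slc5a7 was detected in every sample. StCo had 2153, 1779, 2109.6 and 1585 normalized counts and StHi 1677, 2157 and 1916, so that the StHi samples fell inside the StCo spread. CeCo had 18.6, 22.3, 25.6 and 11.6, and CeHi had 18.5, 14.8, 17.6 and 41.2, the last in replicate 3. The pooled ratio was 88.5 in Co (71.8 to 111) and 80.0 in Hi (65.2 to 99.2), again with intervals of counting error only and not of the spread between mice.

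**Figure D1:**
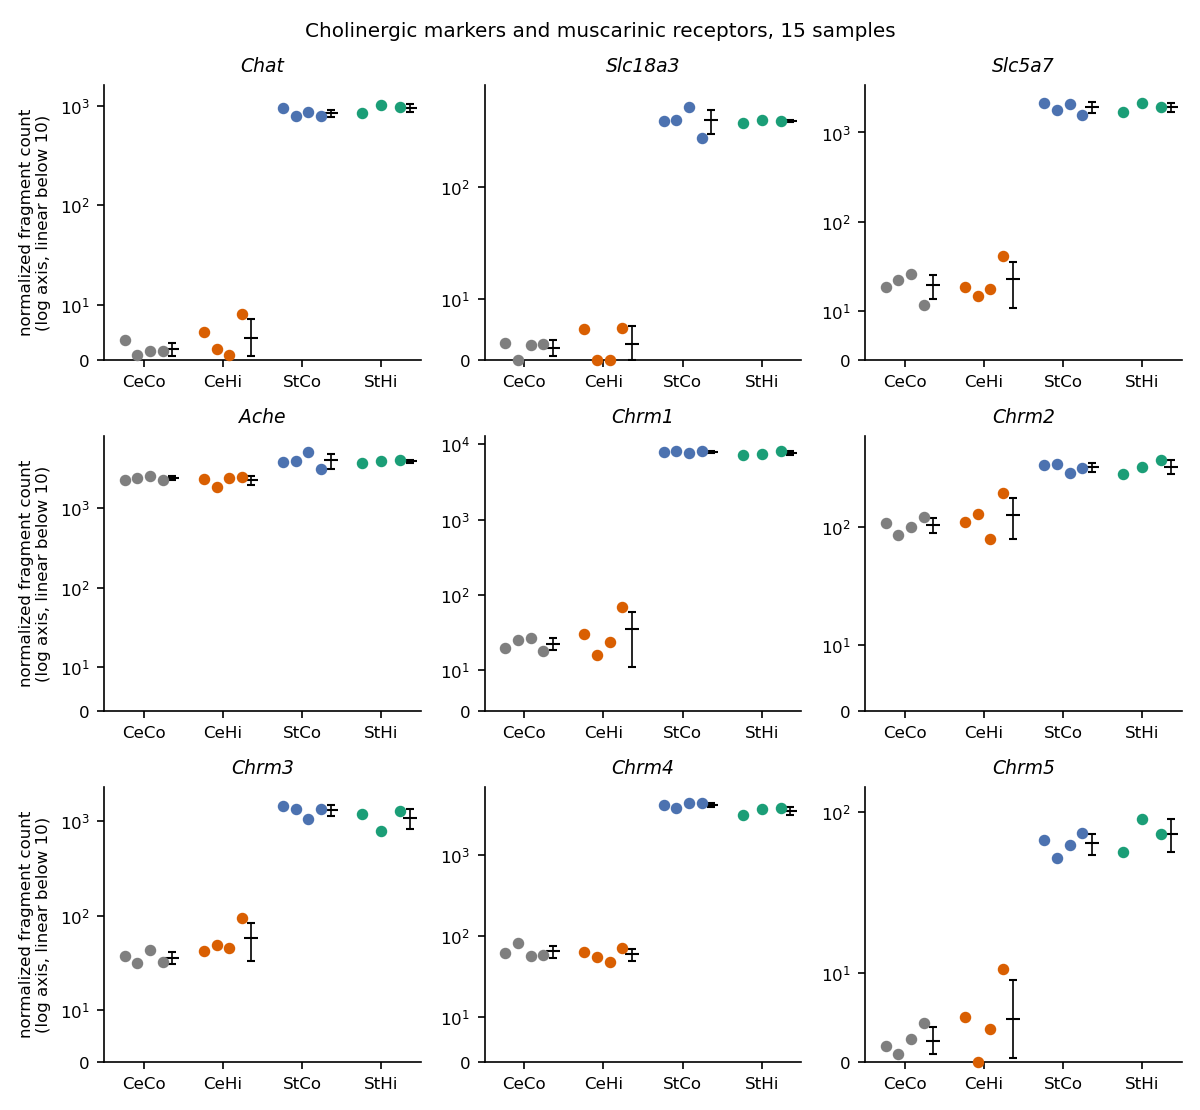
Normalized fragment counts of the 9 genes (vertical axis logarithmic, linear below 10) in the 15 samples, by group, with replicates in label order from left to right. Points are samples and the black marks are the group mean ± SD (n = 4, 4, 4 and 3), stopped at 0. St points lie above all Ce points in each panel, with the smallest gap in Ache, and CeHi replicate 3 is the highest Ce point in 7 of the 9 panels.

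Ache differed least between the regions. It had 2289, 2434, 2575 and 2277 normalized counts in CeCo, 2304, 1849, 2414 and 2469.7 in CeHi, 3787, 3914, 5136 and 3107 in StCo, and 3720.1, 3969.9 and 4047 in StHi. The lowest St sample was above the highest Ce sample, and the lines overlapped in both regions. The region difference (St minus Ce, over both lines) was 0.76 ± 0.09 (SE) on the log2 scale, a 1.70-fold higher level in St (limma, adjusted p = 7.91e-07). Its Ce samples had 46.8% to 65.1% of its St mean, where no Ce sample had more than 2.16% for Slc5a7, 1.34% for Slc18a3 or 0.955% for Chat.

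Among the Gq-coupled receptors, Chrm1 had 7988, 8093, 7705 and 8212 normalized counts in StCo and 7336, 7397 and 8110.0 in StHi. In the cerebellum it had 17.8 to 26.5 in CeCo, and 30.3, 15.8, 23.2 and 68.7 in CeHi, or 0.202% to 0.386% of the St mean outside CeHi replicate 3. Its StCo samples had a mean of 7999.6 ± 216 (SD, n = 4), and 2 of the 3 StHi samples lay under the StCo range.

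Chrm3 had 1455, 1339, 1058 and 1344 normalized counts in StCo and 1176, 789 and 1278 in StHi, where replicate 1 was the lowest striatal sample. In CeCo it had 37.3, 31.2, 42.7 and 32.1, and in CeHi 42.0, 48.5, 45.4 and 95.1. All CeHi samples but the lowest were above the CeCo range. The region difference was 4.70 ± 0.16 (SE) on the log2 scale (limma, adjusted p = 1.01e-13). Chrm5, which midbrain dopamine neurons are known to express, had low counts throughout, with 51.4 to 74.0 in StCo, 55.8 to 89.3 in StHi, 0.892 to 4.45 in CeCo and 0 to 10.6 in CeHi.

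Of the Gi-coupled receptors, Chrm4 had 4034, 3763, 4318 and 4278 normalized counts in StCo, and 3051, 3616 and 3758 in StHi. The highest StHi sample lay just under the lowest StCo sample, so the lines did not overlap. In the cerebellum the lines overlapped, with 62.4, 81.1, 57.2 and 57.9 in CeCo and 63.1, 55.9, 48.2 and 71.9 in CeHi. The region difference was 5.92 ± 0.09 (SE) on the log2 scale (limma, adjusted p = 1.22e-18). Chrm2 was the receptor with the smallest region difference, at 1.51 ± 0.15 (SE; adjusted p = 4.13e-08). It had 281 to 336 normalized counts in StCo, 279 to 365 in StHi and 84.7 to 121 in CeCo, and 108, 127, 78.7 and 190.2 in CeHi.

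As background to these region differences, 80.2% of the 15213 genes tested differed between the regions and 39.6% were higher in St and 40.6% in Ce, and 27.7% had every St sample above every Ce sample. Chat, Slc18a3, Slc5a7, Chrm1 and Chrm5 passed the filter only because of their St counts, and their region differences are given without a test. On the log2 scale of the value plus 1 these were 7.99 for Chat, 7.25 for Slc18a3, 6.51 for Slc5a7, 8.21 for Chrm1 and 4.21 for Chrm5, and the pseudocount holds down those of genes near 0 in Ce. In bulk tissue, fewer cells of a type cannot be told apart from less RNA per cell.

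Levels between genes were compared per kilobase of annotated exon. In StCo the order was Chrm1 (1233 ± 33.3 normalized counts per kilobase, SD, n = 4), Ache (862 ± 183), Slc5a7 (338 ± 48.1), Chrm3 (208 ± 27.1), Chat (178 ± 15.5), Slc18a3 (165 ± 41.2) and Chrm2 (52.0 ± 4.15). Chrm3, Chat and Slc18a3 did not differ from each other beyond their SDs. In CeCo the order was Ache (518 ± 30.4), Chrm2 (17.1 ± 2.51), Chrm3 (5.73 ± 0.848), Slc5a7 (3.46 ± 1.07), Chrm1 (3.42 ± 0.641), Slc18a3 (0.832 ± 0.556) and Chat (0.431 ± 0.256), where neither Slc5a7 and Chrm1 nor Slc18a3 and Chat differed beyond their SDs. Chrm4 and Chrm5 could not be placed in either order, because their annotated models hold 1440 and 1599 bases of coding sequence only and the levels per kilobase are overstated, so no order of all 5 receptors is given.

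The study asked how the selected line differed from the control line in each region. None of the 9 genes passed the test of the line difference in the cerebellum (limma, adjusted p from 0.134 to 0.949), where 5.94% of all genes did, or in the striatum (0.444 to 0.998), where 2.66% did. None passed the line-by-region interaction (0.338 to 0.990), which 0.532% of genes passed, or the line difference averaged over both regions (0.251 to 0.965), against 8.48%. At an unadjusted p under 0.05, 1 of the 9 was found in the cerebellum (19.7% of all genes), 0 in the striatum (14.1%) and 1 in the interaction (9.56%), and this was Chrm3 both times. edgeR on recovered fragments called 0 in each of these comparisons, and DESeq2 called Chrm3 in the cerebellum and no other member. No member had CeCo and CeHi samples that did not overlap, as 13.3% of genes did, and 1 of 9, Chrm4, had non-overlapping striatal lines, as 13.1% of genes did.

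**Figure D2:**
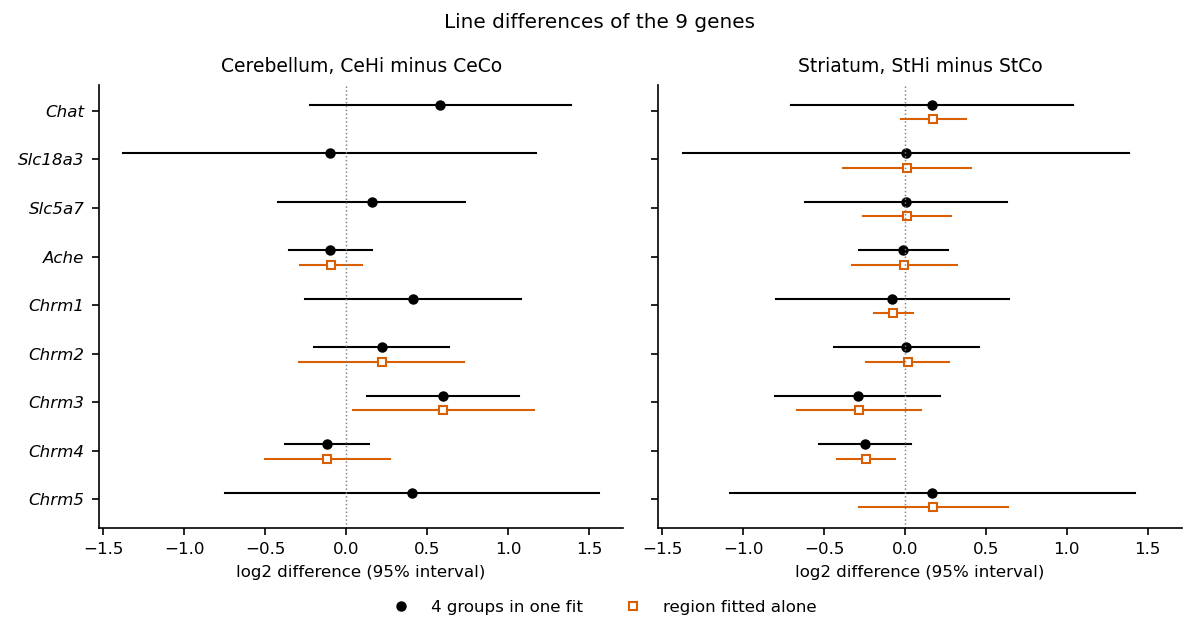
Log2 line difference (Hi minus Co) of each gene in the cerebellum (left) and striatum (right). Circles are from 1 fit of the 4 groups and squares from a fit of that region alone, for genes that pass the filter there, and bars are 95% intervals. Chrm3 in the cerebellum is the only circle whose interval stays off 0, and the squares that do so are Chrm3 in the cerebellum and Chrm4 in the striatum.

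The intervals state what these samples could show. In the striatum the fit of the 4 groups pooled the spread with cerebellar samples that hold a few fragments, which widened the interval of the sparse genes. Fitted in the striatum alone, the line difference of Chat was 0.18 on the log2 scale (95% interval from -0.02 to 0.37), that of Slc18a3 0.01 (-0.38 to 0.41), that of Slc5a7 0.01 (-0.26 to 0.28) and that of Ache -0.0034 (-0.33 to 0.32), and none passed (limma, adjusted p from 0.438 to 0.996). For the receptors it was -0.07 for Chrm1 (-0.19 to 0.05), 0.02 for Chrm2 (-0.24 to 0.27), -0.28 for Chrm3 (-0.67 to 0.10) and 0.18 for Chrm5 (-0.29 to 0.64). None of these receptors passed either.

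Of the 9 striatal line differences that of Chrm4 had the smallest unadjusted p. Its mean was 3475 ± 374 (SD, n = 3) in StHi and 4098 ± 256 (SD, n = 4) in StCo. The log2 difference was -0.25 ± 0.13 (SE; 95% interval from -0.53 to 0.03), a fold of 0.842, with an unadjusted p of 0.0812 and an adjusted p of 0.444 in limma. In the striatum alone the interval was -0.42 to -0.06 (adjusted p = 0.201), and over all 28 alternatives the adjusted p ran from 0.164 to 0.7505. Chrm4 in the cerebellum differed by -0.12 ± 0.12 (SE), and the interaction, 0.13 ± 0.18 (SE; adjusted p = 0.914), did not pass. Among all genes, 5.87% had every StHi sample below every StCo sample.

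Chrm3 in the cerebellum was 57.8 ± 25.04 (SD, n = 4) in CeHi and 35.8 ± 5.30 (SD, n = 4) in CeCo, a log2 difference of 0.60 ± 0.22 (SE; 95% interval from 0.13 to 1.07). The unadjusted p was 0.0160 and the adjusted p 0.134 in limma, and over 28 alternatives the adjusted p ran from 0.0487, with DESeq2, to 0.305. That highest value is without CeHi replicate 3, where the log2 difference was 0.34 (-0.01 to 0.68). In the striatum the sign was opposite, at -0.29 ± 0.24 (SE; adjusted p = 0.676). The interaction was 0.89 ± 0.33 (SE), with an unadjusted p of 0.0152 and an adjusted p of 0.338 in limma, and 0.62 (adjusted p = 0.369) without CeHi replicate 3.

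The other cerebellar line differences moved with the same sample. CeHi replicate 3 had the highest cerebellar value of 7 of the 9 genes, the exceptions being Ache and Chrm4. Over all genes it was highest for 23.5%, and for 33.5% of the genes that were higher in St. Relative to the mean of the other CeHi samples it had 3.62 times the level of Chrm5, 3.14 times that of Chat and of Slc18a3, 2.98 times that of Chrm1, 2.43 times that of Slc5a7, 2.099 times that of Chrm3, 1.82 times that of Chrm2, 1.29 times that of Chrm4 and 1.13 times that of Ache. The first 3 of these ratios rest on few fragments. CeHi replicate 3 had 10 of Chrm5, 8 of Chat and 5 of Slc18a3. CeHi replicates 0, 1 and 2 had 6, 0 and 4 of Chrm5, 6, 2 and 1 of Chat, and 6, 0 and 0 of Slc18a3. The excess of CeHi replicate 3 over the mean of the other CeHi samples amounted to 0.650% of the St mean for Chat, 1.27% for Slc5a7, 0.582% for Chrm1, 0.421% for Chrm4 and 4.13% for Chrm3, 0.912% for Slc18a3, 7.10% for Ache, 11.4% for Chrm5 and 27.0% for Chrm2. The median level of medium spiny neuron markers in CeHi replicate 3 is given above, and its part in these values was not tested. Without this sample the cerebellar log2 differences were 0.21 for Chat in place of 0.58, 0.02 for Chrm1 in place of 0.42, 0.00 for Chrm2 in place of 0.22, -0.15 for Slc5a7 in place of 0.16, -0.07 for Chrm5 in place of 0.41, -0.54 for Slc18a3 in place of -0.10, -0.14 for Ache in place of -0.10 and -0.21 for Chrm4 in place of -0.12. None of them passed with or without it.

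**Figure D3:**
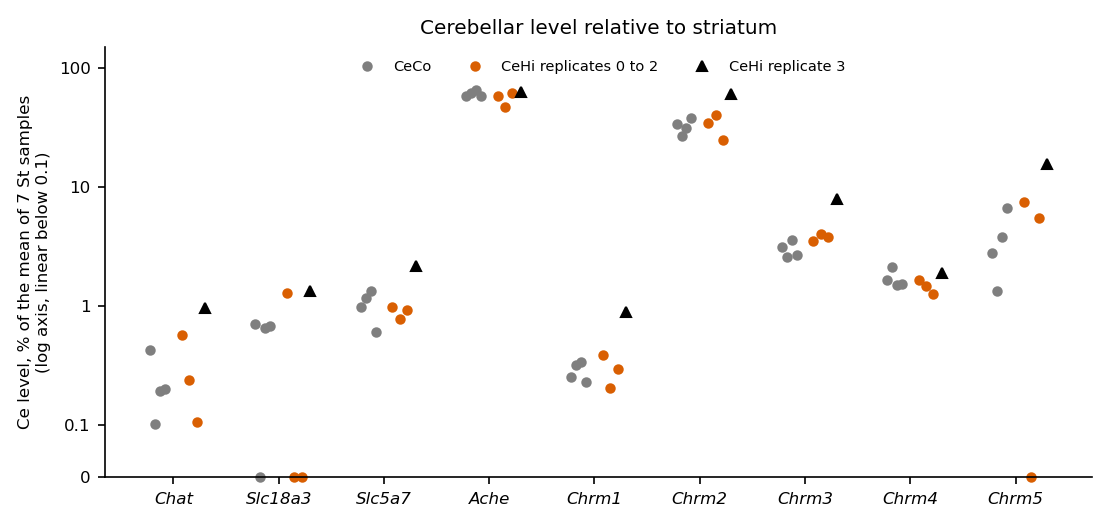
Level of each gene in the 8 cerebellar samples as a percent of its mean over the 7 striatal samples (vertical axis logarithmic, linear below 0.1). Grey points are CeCo, orange points CeHi replicates 0 to 2 and triangles CeHi replicate 3, and no error bars are drawn. Ache and Chrm2 lie above 20% in all samples, Chrm1 lies under 1% in all, and the triangle is the highest point except for Ache and Chrm4.

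Chat, Slc18a3 and Slc5a7 mark the same neurons, and whether they varied together was examined over the 7 striatal samples, on log2 values after the group mean was subtracted. Chat and Slc5a7 had a Pearson's r of 0.885 (two-sided exact permutation p = 0.0151, adjusted over 3 pairs 0.0452) and a Spearman's rho of 0.857 (exact permutation p = 0.0238, adjusted 0.0714). Without the 2 samples farthest from the median of Chat, r was 0.839. For Slc18a3 and Slc5a7 r was 0.701 (exact permutation p = 0.0421, adjusted 0.0631), rho was 0.679 (exact permutation p = 0.110, adjusted 0.164) and r without the 2 farthest samples was 0.643. Chat and Slc18a3, the pair that shares a locus, had an r of 0.326 (exact permutation p = 0.513, adjusted 0.513), a rho of 0.357 (exact permutation p = 0.444, adjusted 0.444) and an r of 0.444 without the 2 farthest samples. Centring ties the values within a group to each other, so these permutation p-values are approximate and may be too small. With no group mean subtracted, Chat and Slc5a7 had an r of 0.708 (exact permutation p = 0.0893, adjusted 0.134) and did not pass. The samples share libraries for all 3 genes. The sum of 8 basal forebrain, septum and globus pallidus markers also varied, from 3978 to 6597 in StCo and from 4406 to 5607 in StHi. Its part in these correlations was not tested. With 1 sample left out, r of the Chat and Slc5a7 pair was 0.846 to 0.934, and the adjusted p passed the threshold without StCo replicate 2 only. These smaller sets have 720 pairings in place of 5040. Slc18a3 and Slc5a7 had an r of 0.361 without StCo replicate 3.

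Ratios between genes were also taken within each striatal sample. The ratio of Slc5a7 to Chat counts was 1.96 to 2.47, and that of Slc18a3 to Chat 0.354 to 0.612, with both ends of the second range in StCo, in replicates 3 and 2. Chrm1 to Chrm4 was 1.78 to 2.15 in StCo and 2.05 to 2.40 in StHi.

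Chrm3 was set beside cortical markers in the striatal samples. StHi replicate 1, the lowest sample for Chrm3 at 789, was also the lowest for 4 of 7 cortical neuron markers, among them Tbr1, at 1857 against 3030.3 to 4697 in the other 6 samples, Neurod6, at 597 against 1338 to 2384, and Nov, at 1119.7 against 1844 to 3773. The remaining 3 were lowest elsewhere, Rasgrf2 and Cux2 in StCo replicate 3 and Lmo3 in StCo replicate 2, and Lmo3 had 6778 in StHi replicate 1, within the range of 5143 to 7333 in the others. The share of all genes that were lowest in StHi replicate 1 was not counted, so the 4 of 7 cannot be read as particular to these markers. The sum of 7 cortical markers was 15948 in this sample and 18902 to 24982 in the other 6. StCo replicate 2, second lowest for Chrm3 at 1058, was also second lowest for this sum. None of the 7 cortical markers passed the striatal line test, which 2.66% of all genes passed. They had 5 negative and 2 positive log2 differences and a median of -0.54, against -0.005 over all genes tested. Their part in the Chrm3 values was not tested.

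**Figure D4:**
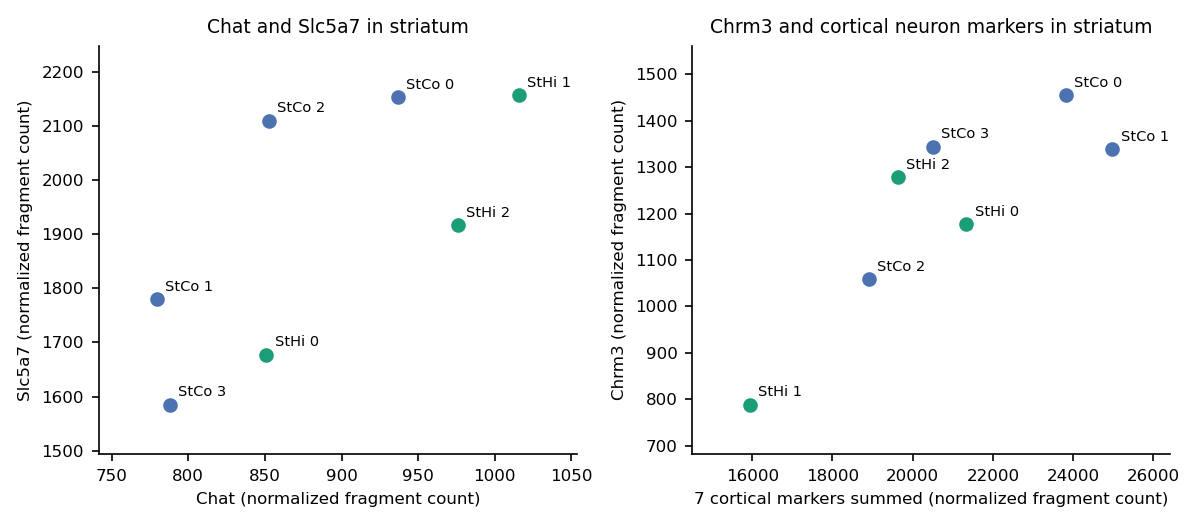
Normalized counts in the 7 striatal samples, labelled by group and replicate, of Slc5a7 against Chat (left) and of Chrm3 against the sum of 7 cortical neuron markers (right). StHi replicate 1 has the highest Chat value, 1016, and the lowest Chrm3 value, 789.

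The genes whose profile over the 15 samples was most like that of each member were named by the root mean square difference of log2 values, each centred on its own mean. For Chat these were Lrrc10b (0.32), Icam5 (0.38), Lhx8 (0.38), Pdyn (0.41) and Chrm1 (0.45). Lhx8 is a LIM homeobox factor of forebrain cholinergic neurons and Pdyn the dynorphin precursor of medium spiny neurons. The nearest to Chrm1 were Icam5 (0.18), Kcnj4 (0.22) and Rgs14 (0.34), and to Chrm4 Gng7 (0.22), Slc35d3 (0.25) and Neto1 (0.26). For Slc5a7 they were Kcnq5 (0.23), Ctxn1 (0.28) and Camkv (0.29), and for Slc18a3 Cntnap3 (0.57), Wnt2 (0.61) and Ecel1 (0.62). Chrm3 was nearest to Basp1 (0.21) and Hpcal4 (0.25), Chrm2 to C1ql1 (0.21), Dpysl3 (0.21) and Tmsb10 (0.22), Ache to Slc4a3 (0.11), Slc22a17 (0.12) and Trp53 (0.12), and Chrm5 to Fxyd2 (0.46), Col24a1 (0.52) and Gm11627 (0.55). These distances are dominated by the size of the region difference.

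Transcription factors and receptors of cholinergic neurons formed a list of 10 genes. Of these 8 met the filter through the striatum only, so their region differences are not counted, and of the other 2 Ngfr was higher in St (0.97 on the log2 scale) and Zic4 higher in Ce (-3.05). In the line tests 1 of the 10 was lower in CeHi (2.99% of all genes) and 0 higher (2.94%), none passed in the striatum (1.49% of all genes were higher in StHi and 1.17% lower), and 1 passed the interaction with a negative sign (0.276% of all genes, with 0.256% positive). Isl1, a LIM homeobox factor, had 708, 700.3, 967 and 680.1 normalized counts in StCo, 489, 627 and 616 in StHi, and 0 to 4.23 in Ce. Its StHi samples lay below StCo without overlap, as for 5.87% of all genes, but its line difference did not pass. Lhx8 had 319 to 597 in StCo and 468 to 557 in StHi.

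Slc17a8 was the only gene of this list that passed a line test. It encodes VGLUT3, the vesicular glutamate transporter that striatal cholinergic interneurons carry beside VAChT, and lies at chr10:89574020-89621253 on the minus strand. In the striatum it had 474, 415, 449 and 495 normalized counts in StCo and 558, 895 and 791 in StHi, without overlap (7.2% of all genes had StHi higher in this way), a log2 difference of 0.67 ± 0.24 (SE; limma adjusted p = 0.175). In the cerebellum it had 13.05, 16.9, 12.8 and 9.80 in CeCo and 9.25, 4.22, 4.63 and 4.23 in CeHi, 4 to 19 fragments per sample, and fell by 1.15 on the log2 scale (limma adjusted p = 0.00419). The CeHi samples lay below CeCo without overlap, as for 6.44% of all genes. Slc17a8 met the filter on low values through its St samples only. Without CeHi replicate 3 the cerebellar log2 difference was -1.06 (limma adjusted p = 0.0145). The interaction passed, at -1.82 ± 0.33 (SE; limma adjusted p = 0.0165). It did not pass without StHi replicate 1 (adjusted p = 0.0638) or StHi replicate 2 (0.0589). The striatal difference passed with edgeR (adjusted p = 0.0131) and DESeq2 (0.00113) and in none of the other 26 alternatives. Chat, Slc18a3 and Slc5a7 in the same StHi samples gave the overlapping values above.

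**Figure D5:**
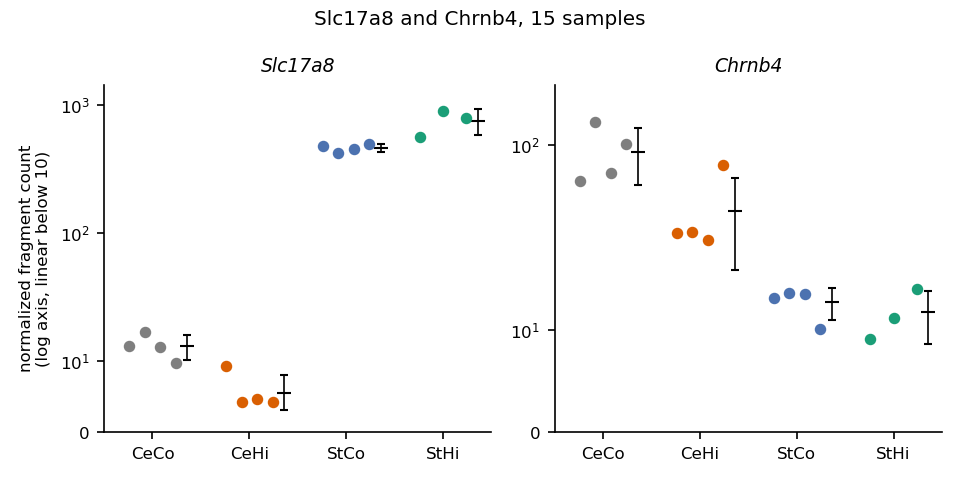
Normalized fragment counts of Slc17a8 (left) and Chrnb4 (right) in the 15 samples by group (vertical axes logarithmic, linear below 10). Points are samples and black marks are the group mean ± SD (n = 4, 4, 4 and 3). Slc17a8 in StHi, 558 to 895, lies above StCo, 415 to 495, and Chrnb4 in CeHi lies at 30.6 to 33.8 in 3 samples and at 78.2 in replicate 3.

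Nicotinic receptor subunits, which form the ionotropic acetylcholine receptors, were divided between the regions. Of 16 subunit genes 8 passed the filter and 5 met it in both regions, 2 of them higher in St (39.6% of all genes) and 3 higher in Ce (40.6%). Their median line difference was -0.07 in the cerebellum and -0.02 in the striatum on the log2 scale. Chrna4 was higher in St by 2.72 on the log2 scale, and Chrnb1 had a difference of -1.02. Chrna5 met the filter through St only and Chrnb4 through Ce only, and their differences, 4.79 and -2.13, are given without a test. Chrnb4 (chr9:55028154-55048779, minus strand) was also the only 1 of the 8 tested subunits that passed a line test. It was lower in CeHi, as were 2.99% of all genes. It had 64.3, 134, 70.8 and 102 normalized counts in CeCo and 33.6, 33.8, 30.6 and 78.2 in CeHi, and fell by 1.11 on the log2 scale (limma adjusted p = 0.0443). The call held in 12 of 27 alternatives and was lost in 15, with an adjusted p from 0.00588, without CeHi replicate 3, to 0.151, without CeCo replicate 1. Leaving out any of CeCo replicates 1, 2 and 3, CeHi replicates 0, 1 and 2, StCo replicates 0 and 1 or StHi replicate 1 ended it, as did the replicate block (adjusted p = 0.0533).

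Of 5 genes for proteins that fold or modulate nicotinic receptors, 2 passed the cerebellar line test, both higher in CeHi, as were 2.94% of all genes. Lypd1, a membrane-anchored modulator of the lynx family, had 497 to 636 normalized counts in CeCo and 679.9 to 995 in CeHi, without overlap, and rose by 0.43 ± 0.10 (SE; limma adjusted p = 0.0161). Tmem35, the chaperone NACHO, had 2547 to 2767 in CeCo and 2964 to 3118 in CeHi, also without overlap, and rose by 0.17 ± 0.04 (SE; limma adjusted p = 0.0300). Fitted in the cerebellum alone both missed the threshold (adjusted p = 0.0605 for Lypd1 and 0.0587 for Tmem35). Lypd1 also missed it without CeCo replicate 1 (0.0569), and Tmem35 without CeCo replicate 0, 2 or 3 or CeHi replicate 1 or 3 (0.0531 to 0.0893). Over all genes 6.88% had every CeHi sample above every CeCo sample. Neither gene passed in the striatum. Of the 5 genes 3 were higher in St, as were 39.6% of all genes (Ly6h by 3.596 and Lypd1 by 2.41 on the log2 scale). Another 1, Ric3, was higher in Ce, as were 40.6%.

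Of 13 genes for cholinesterase partners and choline supply, 11 were tested and none passed a line test or the interaction. Of all genes 5.94% passed in the cerebellum, 2.66% in the striatum and 0.532% in the interaction. Of the 9 that met the filter in both regions 3 were higher in St (39.6% of all genes) and 5 higher in Ce (40.6%). Prima1 met it through St only and Colq through Ce only, and their differences are given without a test. Prima1, which anchors acetylcholinesterase in neuronal membranes, had a St minus Ce difference of 3.25 on the log2 scale, and Colq, the collagen tail of the asymmetric form, one of -2.86. Among 13 muscarinic effectors none passed a line test, with the same shares of all genes. Of these effectors 7 were higher in St (39.6% of all genes), led by Rgs4 (4.76) and adenylate cyclase 5, Adcy5 (4.30). Another 4 were higher in Ce (40.6%), led by the phospholipase Plcb4 (-2.67). The median line difference of the 13 effectors was 0.04 on the log2 scale in the cerebellum and -0.08 in the striatum, against -0.002 and -0.005 over all genes.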

How the data were processed

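The authors aligned 100-base read pairs to GRCm38 with TopHat2 and deposited, for each gene and sample, Cuffnorm 2.2.1 values, a signal made of fragment counts divided by a library factor and not by gene length. Of the low values, 99.6% to 99.8% per sample were whole fragments (within 0.1), from which fragments were recovered. Values were TMM-scaled (edgeR 4.0.16). limma 3.58.1 (R 4.3.3; trend, robust) was run on log2 of the value plus 1 with 4 group means, for genes at a CPM of at least 1 in 3 or more samples, and Benjamini-Hochberg adjustment covered all 15213 genes. The threshold was an adjusted p under 0.05. Fold changes on this scale understate changes of low genes. Alternatives were other scalings, filters and pseudocounts, sample quality weights, a replicate block, regions fitted alone, edgeR and DESeq2 1.42.0 on recovered fragments, and each sample left out. The members and gene lists were chosen with earlier results of these data known. Named genes were the 9 members, list genes past a line or interaction threshold (at most 3 a list), at most 2 per list and direction for the region difference, and the nearest profiles. Other genes are named as markers or as members of a list, chosen after their values were seen. Same-numbered CeCo and StCo samples deviated together (residual r from 0.171 to 0.278 in all 4 pairs), whereas CeHi and StHi did not (-0.0751 to 0.0513), and the labels do not say that they share a mouse. A block by number within line, added after this was seen, changed no call on a member. The limma test replaced a count test because the table holds scaled values. Some items that these rules would name are not reported here.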

Additional observations from a re-analysis of the deposited data

Results flagged for a closer look

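In groups of 4 samples, 5 of 57 gene and group combinations had 1 sample set far from the rest by Dixon's test, where chance gives about 1 in 20, and 3 of the 5 were in CeHi replicate 3. Among the members this sample had 41.2 normalized counts of Slc5a7, with 14.8 to 18.5 in the other CeHi samples, and 95.1 of Chrm3, with 42.0 to 48.5 in the others. For Chrnb4 it had 78.2, with 30.6 to 33.8 in the others. CeCo replicate 1 had 0 of Slc18a3, with 2.56 to 2.80 in the other CeCo samples, a gap of 3 fragments at most. CeHi replicate 0 had 9.25 of Slc17a8, with 4.22 to 4.63 in the others.

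The line difference was not the same in the 2 regions, by the interaction term in limma, for 3 genes of the lists. They were 1 of 10 cholinergic neuron factors and receptors tested, 1 of 6 striatal interneuron markers and 1 of 7 granule cell markers. Of all genes tested 0.532% passed this term, and the lists were chosen with earlier results of these data known. For Slc17a8 it was -1.82 on the log2 scale (adjusted p = 0.0165). For the interneuron peptide Npy it was 1.35 (adjusted p = 0.0172), from 1.25 in the cerebellum and -0.10 in the striatum, and Npy had 138 to 192 normalized counts in the libraries labelled CeCo and 297 to 569 in those labelled CeHi. For Cbln1, a synaptic organizer of granule cells, it was -0.80 (adjusted p = 0.0358), from -0.28 and 0.51. Without CeHi replicate 3 the interaction was -1.74 for Slc17a8, 1.18 for Npy and -0.84 for Cbln1, and each still passed.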

How the results depend on the processing

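None of the 9 genes was called in a line comparison under any alternative except with DESeq2, which called 1, Chrm3, in the cerebellum. Over all genes DESeq2 called 1390 in the cerebellum, 711 in the striatum and 277 in the interaction, against 903, 405 and 81, sample quality weights called 740 in the striatum and 182 in the interaction, and leaving out 1 sample gave 613 to 953, 269 to 468 and 46 to 117. Log2 line differences near 0 changed sign. In the cerebellum Slc18a3 became 0.37 with edgeR and 0.39 with DESeq2, from -0.10, and Chrm5 became -0.048 with a pseudocount of 0.1, from 0.41. In the striatum Slc18a3 became -0.0056 with quantile scaling, -0.027 with edgeR and -0.026 with DESeq2, and Ache became 0.049 with sample quality weights. Leaving out 1 sample gave cerebellar ranges of -0.14 to 0.0012 for Ache, -0.071 to 1.11 for Chrm5, -0.57 to 0.34 for Slc18a3 and -0.15 to 0.33 for Slc5a7, and striatal ranges of -0.12 to 0.12 for Ache, -0.089 to 0.10 for Chrm2, -0.15 to 0.15 for Slc18a3 and -0.084 to 0.10 for Slc5a7. The correlation of Chat with Slc5a7 was 0.708 (exact permutation, adjusted p = 0.134) with no group mean subtracted and 0.846 to 0.934 with 1 sample left out. The causes were not tested. Genes with a few fragments per cerebellar sample limit what the cerebellum can show.

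With the replicate block, no call on a member changed, and Chrm1 in the striatum became 0.027, from -0.08. Same-numbered samples of the lines within a region did not deviate together (mean residual r of -0.03 in the cerebellum and 0.06 in the striatum).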
